A study of Mus musculus with 6 samples.

Results

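The genes described here are markers of Kupffer cells, the resident macrophages of the liver, together with genes of MHC class II antigen presentation, read in the livers of mice lacking Atp7b and of wild-type mice. The macrophage markers are Lyz2, Cd5l, Clec4f, Adgre1, Cd68, Csf1r and Marco, and the class II genes are H2-Aa, H2-Ab1 and Cd74. Every probe set of the value table whose platform annotation gives one of these symbols alone was taken. This gave 12 of 11811 probe sets and 9 of 7163 genes, with 8 probe sets for 6 macrophage markers and 4 for the 3 class II genes. Csf1r had 3 probe sets, H2-Aa had 2 and the other 7 genes had 1 each, while Marco had 0 and was not analysed here. All 12 passed the filter on low values, an average of 100 or more across the 6 samples, and were tested.

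Total RNA of 6 liver samples was hybridised to Affymetrix expression arrays, 1 array per sample. Of these, 3 were labelled as Atp7b knockout (KO903, KO904 and KO905) and 3 as wild type (WT4, WT5 and WT6). Atp7b encodes the copper-exporting ATPase of hepatocytes, whose loss causes Wilson disease. The series title sets the comparison at an early stage of copper build-up. The labels refer the knockout line to an earlier publication and state neither strain, sex, age, diet nor how the wild-type mice relate to the line. Since nothing in them ties each sample to its own animal, the p-values cover variation among these 6 samples, which may be technical.

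Values are MAS 5.0 signals, intensities on a linear scale that the authors scaled array by array. Array medians ran from 330.8 to 342.8, and the number of arrays limits the precision. The hepatocyte markers Alb, Apoa1 and Ttr had signals of 21282.4 or more on every array, and of the 9 hepatocyte markers tested none passed the test in either direction by limma (0 at an unadjusted p under 0.05). The single Atp7b probe set read 240.5, 231.8 and 184.9 in KO903, KO904 and KO905, against 259, 299.7 and 241 in WT4, WT5 and WT6 (log2 difference -0.27 ± 0.16 SE, limma adjusted p = 0.407). Where its probes lie with respect to the knockout mutation is not stated, so this value does not check the genotype labels.

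Kupffer cells line the liver sinusoids, take up particles, old red cells and bacterial products from portal blood, and depend on signalling through the receptor encoded by Csf1r. Class II molecules are pairs of an alpha and a beta chain that display peptides to CD4+ T cells. They are assembled with the invariant chain Cd74, which blocks the peptide groove until proteases cut it away in endosomes. In liver they are made mainly by dendritic cells, B cells and macrophages, and their genes share a promoter module of X and Y boxes that is switched on by the coactivator encoded by Ciita.

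Promoter sequences from RefSeq (GRCm38.p6) are shown for H2-Aa, the class II gene with the clearest difference, for H2-Eb1, its neighbour in the annotation and a class II beta chain gene with overlapping groups, and for the macrophage markers with the 3 smallest p-values (Lyz2, Cd5l and Clec4f). Of the 10 genes, 6 were found in the promoter table. Each line is the 150 bases before the annotated start, 5′ to 3′ on the gene's own strand. Capitals mark matches on either strand to GCAAC (X1 box core), TGACGTCA (X2 box), ATTGG (Y box core, bound by NF-Y) and GAGGAA (core of sites for the macrophage factor PU.1). These letters were chosen after the sequences had been seen, and none of the matches overlap.
H2-Aa, chr17:34287824-34287973, minus strand: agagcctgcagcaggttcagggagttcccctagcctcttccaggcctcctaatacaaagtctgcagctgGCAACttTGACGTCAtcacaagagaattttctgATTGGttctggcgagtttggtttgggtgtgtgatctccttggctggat
H2-Eb1, chr17:34305717-34305866, plus strand: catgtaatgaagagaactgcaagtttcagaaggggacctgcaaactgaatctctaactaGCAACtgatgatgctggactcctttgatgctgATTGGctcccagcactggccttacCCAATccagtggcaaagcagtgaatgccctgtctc
Lyz2, chr10:117282273-117282422, minus strand: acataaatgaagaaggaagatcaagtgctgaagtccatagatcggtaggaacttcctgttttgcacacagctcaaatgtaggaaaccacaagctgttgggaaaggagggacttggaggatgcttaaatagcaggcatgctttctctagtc
Cd5l, chr3:87357731-87357880, plus strand: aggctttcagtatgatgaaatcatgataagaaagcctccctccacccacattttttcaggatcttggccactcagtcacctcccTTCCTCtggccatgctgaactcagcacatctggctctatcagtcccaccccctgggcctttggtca
Clec4f, chr6:83656117-83656266, minus strand: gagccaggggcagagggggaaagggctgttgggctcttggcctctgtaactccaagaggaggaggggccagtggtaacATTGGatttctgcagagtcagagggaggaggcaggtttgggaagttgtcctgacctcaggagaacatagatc

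Both class II promoters held GCAAC and, downstream of it on the same strand, ATTGG, with 28 bases between them in H2-Aa and 27 in H2-Eb1. Of 32851 promoter windows of the same length in the table, 19.6% held GCAAC, 24.5% held ATTGG and 5% held both, on either strand and at any spacing. The full TGACGTCA stood between them in H2-Aa and was found in 1.36% of windows; H2-Eb1 had no match to these letters, and held the Y box core once more on the opposite strand. GAGGAA was matched in Cd5l, as its reverse complement, and in 14.5% of windows. Clec4f held 1 ATTGG and Lyz2 held none of the 4 letter strings. Other forms of these sites were not searched.

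The class II genes read higher in the 3 knockout samples than in every wild-type sample on all 4 probe sets. Of these 4, 2 are of H2-Aa. Of all tested probe sets 13.2% were apart in this way, as were 14% of all tested genes. The members were chosen with earlier results of these data known. H2-Aa, the alpha chain of the I-A molecule, was the only one of the 3 genes to pass the test. On its brightest probe set H2-Aa read 1530.3, 974.4 and 1094.2 in KO903, KO904 and KO905, against 793.8, 669 and 730.8 in WT4, WT5 and WT6. The lowest knockout value lay above the highest wild-type value, and KO903 stood well above the other two knockout samples. H2-Aa rose 1.60-fold (95% interval 1.25 to 2.05; log2 difference 0.68 ± 0.16 SE, limma adjusted p = 0.043). In whole liver RNA, a change in the number of cells of a type and a change in RNA per cell cannot be told apart, here and for the macrophage markers. This made 1 of 12 probe sets of the described genes called, and 0 of 8 among the macrophage markers. The same test called 4.14% of all 10620 tested probe sets, 2.05% as higher and 2.09% as lower in the knockout. The H2-Aa call ended without KO903 (log2 0.49, adjusted p = 0.128), KO905 (0.0906), WT4 (0.0731), WT5 (0.0831) or WT6 (0.0951), and with the prior variance not allowed to follow intensity (adjusted p = 0.0731).

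The remaining H2-Aa probe set read 361.6, 181 and 188.8 in KO903, KO904 and KO905, against 173.6, 161.7 and 130.1 in WT4, WT5 and WT6. Its groups did not overlap, by a narrow margin between KO904 and WT4, and it did not pass the test (log2 0.54 ± 0.24 SE, limma adjusted p = 0.265). Without KO903 its log2 difference was 0.24 (adjusted p = 0.634). Averaged over both probe sets, the gene's log2 difference was 0.61 (adjusted p = 0.0956). The suffixes of the H2-Aa and H2-Ab1 probe sets (x_at and s_at) mark, by Affymetrix naming, probe sets whose probes can also match other transcripts. The called H2-Aa probe set is the x_at one.

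H2-Ab1 encodes the beta chain that pairs with H2-Aa, and the 2 genes are neighbours on chromosome 17 in the RefSeq table. It read 969.6, 506.3 and 669.7 in KO903, KO904 and KO905, against 394.7, 481.7 and 479.8 in WT4, WT5 and WT6. The groups were apart, with only KO904 close to the wild-type range. The log2 difference was 0.60 ± 0.20 SE, a 1.52-fold value that did not pass (limma adjusted p = 0.14), and without KO903 it was 0.36.

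Cd74, the invariant chain, read 1091.9, 854.6 and 826.3 in KO903, KO904 and KO905, against 773.9, 584.1 and 670.3 in WT4, WT5 and WT6. Here too the groups were apart and KO903 was highest. The log2 difference was 0.44 ± 0.15 SE (1.36-fold, limma adjusted p = 0.138). Over all tested probe sets, 13.2% had every knockout value above every wild-type value, and over the tested genes 14% did. The median log2 difference of the 3 class II genes was 0.60, beside 0.03 over all 6604 tested genes. Without KO903 that median was 0.36.

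**Figure D1:**
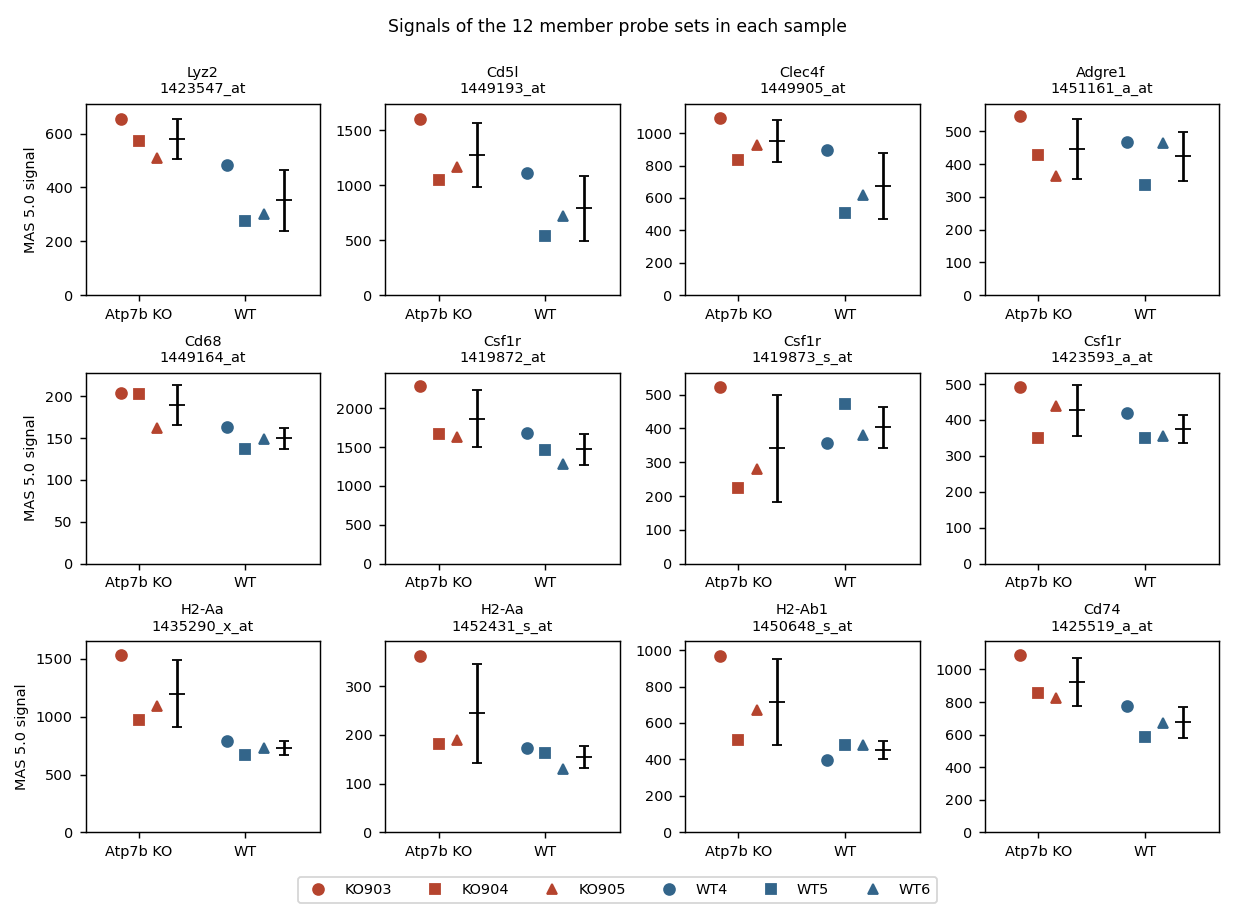
MAS 5.0 signal (linear, from 0) of each of the 12 probe sets in the 3 Atp7b knockout samples (red, left) and the 3 wild-type samples (blue, right), with marker shapes telling the samples of a group apart; black bars are the mean and SD (n = 3 each). KO903 is the highest sample in all 12 panels, and the groups are apart for Lyz2 and for the 4 class II probe sets.

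The macrophage markers did not pass the test on any of their 8 probe sets by limma (3 at an unadjusted p under 0.05, all higher in the knockout). Only Lyz2, 1 of the 8, had every knockout value above every wild-type value, as 13.2% of all tested probe sets had. The groups of the others overlapped. All 4 class II probe sets were also higher at an unadjusted p under 0.05, making 7 of 12. Over all tested probe sets, 9.69% were higher at that p (17.9% in either direction). Log2 differences were above 0 on 7 of 8 macrophage and 4 of 4 class II probe sets, together 11 of 12, beside 54.6%. By gene, 6 of 9 were higher at that unadjusted p, beside 10.1% of all tested genes. Taking the brightest probe set of each macrophage marker, all 6 log2 differences were above 0, from 0.07 to 0.73, with a median of 0.42. Over all tested genes the median was 0.03, and 56.4% were above 0. The members were chosen with earlier results of these data known, and KO903 was the highest sample on all 12 probe sets. The counts beside these shares are therefore a description only.

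Lyz2, the lysozyme gene of macrophages and other myeloid cells, read 656, 574 and 507.8 in KO903, KO904 and KO905, against 483.5, 274.9 and 299.8 in WT4, WT5 and WT6. All knockout samples lay above the wild-type samples, and WT4 was much nearer to them than WT5 and WT6 were. The log2 difference was 0.73 ± 0.20 SE, or 1.65-fold (95% interval 1.22 to 2.24, limma adjusted p = 0.0674). Lyz2 passed when WT4 was left out (log2 0.97, adjusted p = 0.0146). Its log2 difference was 0.63 without KO903 (limma adjusted p = 0.215) and 0.58 without WT5 (0.141). Without KO903 and WT5 together it was 0.49 (limma adjusted p = 0.302).

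Cd5l encodes a scavenger protein that macrophages secrete and is, in mouse liver, characteristic of Kupffer cells. It read 1603.9, 1049.1 and 1168.4 in KO903, KO904 and KO905, against 1113, 536.7 and 723.5 in WT4, WT5 and WT6. The groups overlapped, since WT4 exceeded KO904. Wild-type values alone differed 2.07-fold between their highest and lowest, and the median of that ratio over all tested probe sets was 1.26. The log2 difference of 0.72 ± 0.24 SE (1.64-fold) did not pass (limma adjusted p = 0.128).

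Clec4f, a C-type lectin that in mouse is restricted to Kupffer cells, read 1094.1, 834.7 and 930.5 in KO903, KO904 and KO905, against 898.3, 505.4 and 620.1 in WT4, WT5 and WT6. As for Cd5l, WT4 lay above KO904 while WT5 and WT6 lay well below all knockout samples. The log2 difference was 0.52 ± 0.19 SE (1.43-fold, limma adjusted p = 0.177). Without WT4, Cd5l (log2 0.99, adjusted p = 0.0315) and Clec4f (log2 0.74, adjusted p = 0.0438) passed, which with Lyz2 made 3 of 6 macrophage markers. The log2 differences of Cd5l and Clec4f were 0.47 and 0.34 without WT5, and 0.30 and 0.23 without KO903 and WT5 together.

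Adgre1, which encodes the F4/80 surface antigen of mouse macrophages, read 545.9, 428.2 and 364.7 in KO903, KO904 and KO905, against 468.8, 336.9 and 465.3 in WT4, WT5 and WT6. The groups were fully interleaved. The log2 difference was 0.07 ± 0.18 SE, with a 95% interval of -0.32 to 0.46 (limma adjusted p = 0.885), and it was -0.08 without KO903 and -0.08 without WT5. Cd68, a lysosomal membrane glycoprotein of macrophages, read 204, 202.6 and 161.7 in KO903, KO904 and KO905, against 162.6, 137.2 and 149 in WT4, WT5 and WT6. Only WT4 and KO905 broke the separation of its groups, and its log2 difference was 0.31 ± 0.16 SE (limma adjusted p = 0.35).

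The 3 probe sets of Csf1r, the receptor tyrosine kinase for CSF1 and IL-34 on which Kupffer cells depend, differed in direction. The brightest read 2290.8, 1672.5 and 1631.5 in KO903, KO904 and KO905, against 1679, 1465.3 and 1279.8 in WT4, WT5 and WT6 (log2 0.33 ± 0.15 SE, limma adjusted p = 0.294). WT4 lay just above KO904 and KO905. Without KO903 its log2 difference was 0.17, and averaged over the 3 probe sets that of Csf1r was 0.06 (adjusted p = 0.886). By its suffix, the s_at probe set can also match other transcripts. It read 521.2, 222.7 and 280.2 in KO903, KO904 and KO905, against 357.2, 472.6 and 381.9 in WT4, WT5 and WT6. On it the knockout samples were both the highest and the lowest of the samples, and the log2 difference was -0.31 ± 0.25 SE (adjusted p = 0.58). It was -0.65 without KO903 (adjusted p = 0.116), -0.06 without KO904 and -0.20 without WT5. On the a_at probe set the log2 difference was 0.17 ± 0.15 SE (adjusted p = 0.615), with overlapping values of 349.9 to 491.1 in knockout and 349.1 to 419.1 in wild-type samples. It was 0.07 without KO903 and 0.31 without KO904.

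**Figure D2:**
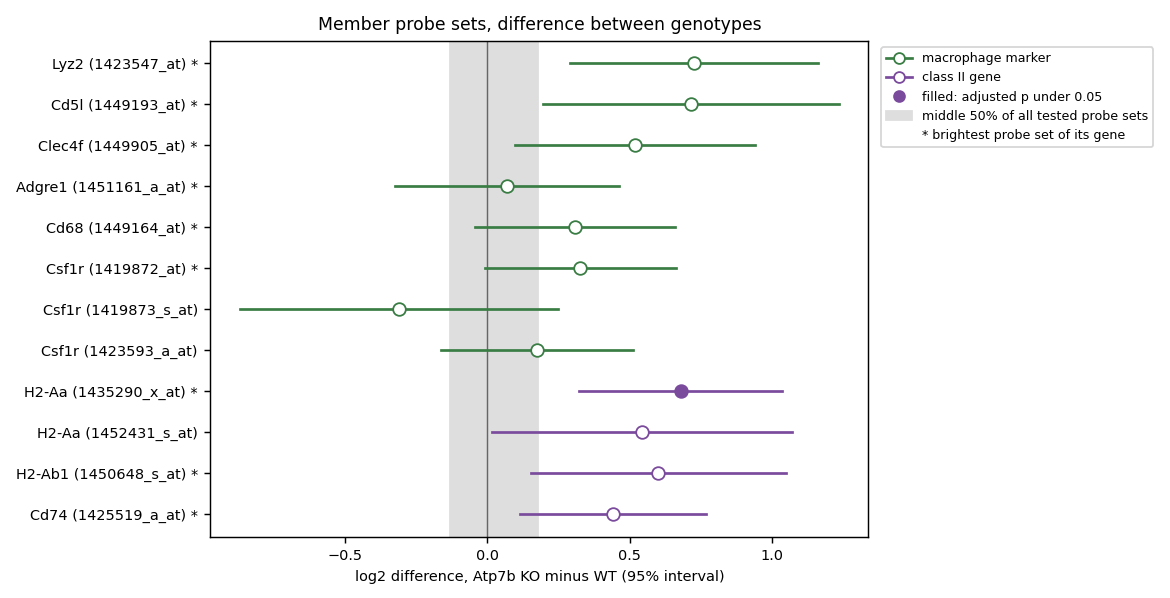
Log2 difference, Atp7b knockout minus wild type, of the 12 probe sets (points, with 95% intervals), macrophage markers in green and class II genes in purple; the grey band holds the middle 50% of all 10620 tested probe sets (-0.13 to 0.18). Only the brightest H2-Aa probe set is filled (adjusted p = 0.043), and 1 Csf1r probe set lies below 0.

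The values of these genes differed between samples of one genotype as well as between genotypes. KO903 was the highest of the 6 samples on 12 of 12 of their probe sets, and it was the highest on 19.2% of all tested probe sets. WT5 was the lowest on 8 of 12, and on 20.4% of all tested probe sets. As a mean over the 6 macrophage markers, the log2 distance from the wild-type mean was 0.69 in KO903, 0.36 in KO904 and 0.29 in KO905, against 0.32 in WT4, -0.26 in WT5 and -0.06 in WT6. WT4 thus lay within the knockout range on the macrophage markers. Over the 3 class II genes the distance was 0.94 in KO903, 0.30 in KO904 and 0.47 in KO905, against 0.05 in WT4, -0.07 in WT5 and 0.03 in WT6. On the mean of the class II genes WT4 lay with the other wild-type samples. By gene its distance was 0.20 for Cd74 and 0.12 for H2-Aa, the highest of the wild-type samples, and -0.18 for H2-Ab1, the lowest. The median distance over all tested probe sets was between 0.00 and 0.04 in all 6 samples. Ratios of 3' to 5' signal in KO903 were 1.19 for actin and 0.815 for Gapdh, the other knockout samples had 1.17 to 1.22 and 0.893 to 0.895, and wild-type samples had 1.1 to 1.47 and 0.859 to 0.99. The part of RNA quality in these differences was not tested.

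**Figure D3:**
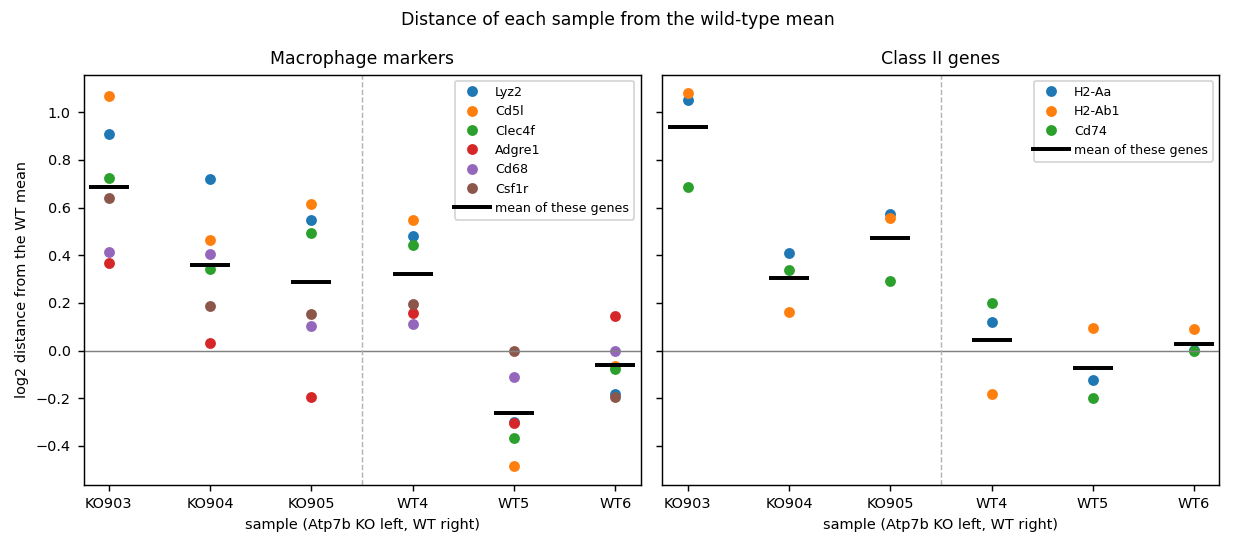
Log2 distance of each sample from the wild-type mean for the 6 macrophage markers (left panel) and the 3 class II genes (right panel), 1 colour per gene, with black bars for the mean over the genes of a panel; knockout samples are left of the dashed line. For the macrophage markers the mean of WT4 (0.32) lies among the knockout means (0.29 to 0.69), and for the class II genes the wild-type means (-0.07 to 0.05) lie below all knockout means (0.30 to 0.94).

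Among 12 tested partners of class II presentation (26 listed, 13 in the table), 0 passed the limma test, and the median log2 difference was 0.18. An unadjusted limma p under 0.05 was reached by 3, all higher in the knockout, and by 1188 of 6604 tested genes in either direction. The smallest p-values belonged to Ctsl, an endosomal protease, and Rfx5, a subunit of the factor that binds the X box. Ctsl read 7386.9, 8299.8 and 6595.3 in KO903, KO904 and KO905, against 5787.9, 6120.9 and 5699.8 in WT4, WT5 and WT6 (log2 0.33 ± 0.10 SE, limma adjusted p = 0.107). Rfx5 read 293.3, 349.9 and 277.1 in KO903, KO904 and KO905, against 205.1, 200.2 and 244.5 in WT4, WT5 and WT6 (log2 0.47 ± 0.15 SE, limma adjusted p = 0.116). For both, the knockout samples lay above the wild-type samples without passing, and KO904, not KO903, was highest.

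H2-Eb1, the beta chain of the I-E molecule, was picked out after its values were seen. It read 828, 425.1 and 557.7 in KO903, KO904 and KO905, against 635.6, 467 and 397.3 in WT4, WT5 and WT6. Its groups overlapped, with WT4 second only to KO903 (log2 0.24 ± 0.23 SE, limma adjusted p = 0.657). With 1 sample left out the log2 difference ran from -0.01 (without KO903) to 0.46 (without KO904), so its sign was not stable. Whether its difference is smaller than that of H2-Aa was not tested. Ctss, the protease that makes the last cuts in the invariant chain, had a log2 difference of -0.12 ± 0.19 SE (limma adjusted p = 0.797). No probe set of Ciita was analysed here. In the list of cytokine signals that induce or restrain class II genes, 0 of 7 tested genes passed by limma (0 at an unadjusted p under 0.05), and the median was 0.07. The smallest p-values there were those of Irf1 (log2 0.29 ± 0.14 SE, limma adjusted p = 0.319) and Irf2 (log2 0.25 ± 0.16 SE, adjusted p = 0.474), interferon regulatory factors.

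Of 16 tested genes in the list of other Kupffer cell genes, 1 rose, 0 fell, and 13 had log2 differences above 0 (median 0.29). The share of all tested genes called was 2.14% as higher and 1.8% as lower. Id1, an inhibitor of basic helix-loop-helix factors that many liver cells express, was the one that rose. It read 485, 463.2 and 267.7 in KO903, KO904 and KO905, against 215.5, 179.5 and 188.1 in WT4, WT5 and WT6. The groups were apart, with KO905 nearest to wild type (log2 0.96 ± 0.21 SE, limma adjusted p = 0.0288). The Id1 call ended without KO903, KO904, WT4, WT5 or WT6 (adjusted p up to 0.123). Id3, a related inhibitor that marks Kupffer cell identity in mouse, had a log2 difference of 0.37 ± 0.14 SE (limma adjusted p = 0.2). The lowest log2 difference of the list was that of Rxra, a nuclear receptor that hepatocytes also express, named after its values were seen. It read 1041.3, 878.3 and 888.5 in KO903, KO904 and KO905, against 1205.9, 1137 and 1105.7 in WT4, WT5 and WT6, with every knockout value below every wild-type value (log2 -0.30 ± 0.12 SE, limma adjusted p = 0.209).

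In the list of shared macrophage and myeloid genes, 0 of 20 tested genes passed by limma on the brightest probe set, and the median was 0.09. An unadjusted limma p under 0.05 was reached by 6, Cebpa and Cebpb lower and the rest higher. Of all 6604 tested genes 1188 reached it, in either direction. The smallest p-values of the list were those of Cebpa (log2 -0.40 ± 0.10 SE, limma adjusted p = 0.0539) and Cebpb (log2 -0.62 ± 0.16 SE, adjusted p = 0.0556), transcription factors that hepatocytes also express. Another probe set of Cebpb fell (log2 -0.56 ± 0.13 SE, limma adjusted p = 0.0368). For this and the other calls below on probe sets that are not the brightest of their gene, leaving out 1 sample was not examined. Fcgr2b, an inhibitory IgG receptor of macrophages and sinusoidal endothelium named after its values were seen, had 1 called probe set among 4 (log2 0.82, limma adjusted p = 0.0228), with log2 differences of 0.61, 0.47 and -0.01 on the others. Of all tested probe sets 2.05% were called higher. Among 5 tested genes of CSF1 receptor ligands and signalling 1 passed, beside 1.8% of all tested genes called lower and 2.14% called higher. It was Pik3r1, a regulatory subunit of PI 3-kinase that hepatocytes also use. It fell to 180.9, 191.5 and 225.8 in KO903, KO904 and KO905, against 395.5, 281.7 and 320.8 in WT4, WT5 and WT6 (log2 -0.69 ± 0.16 SE, limma adjusted p = 0.0397). That call ended when any library other than WT5 was left out (adjusted p up to 0.149). Another probe set of Pik3r1 also fell (log2 -0.64 ± 0.15 SE, limma adjusted p = 0.0362). The remaining Pik3r1 probe set, with overlapping groups, did not pass (log2 -0.78 ± 0.24 SE, limma adjusted p = 0.109). Grb2, an adaptor protein, had the next smallest p there (log2 0.33 ± 0.16 SE, limma adjusted p = 0.324), and Csf1, the ligand, had a log2 difference of 0.10 ± 0.28 SE (adjusted p = 0.895).

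Markers of other cells that carry class II or macrophage genes were sparsely measured. Of 15 B cell and plasma cell markers 4 were in the table and 3 tested, with summed signals of 448.1 to 524.9 in knockout and 356.3 to 432.5 in wild-type samples. Of 13 dendritic cell markers 3 were in the table and 2 tested, with sums of 1074.3 to 1437.4 in knockout and 628.4 to 899.4 in wild-type samples, most of it from Id2, which other liver cells also express. The defining markers Cd79a, Itgax and Flt3 were not analysed here. None of these 5 tested genes passed the limma test. An unadjusted limma p under 0.05 was reached by 2, both higher in the knockout, and by 1188 of 6604 tested genes in either direction. The part of B cells and dendritic cells in the class II difference was not tested.

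Plac8, a small myeloid protein gene and the only 1 of 14 markers of monocytes and recruited macrophages in the table, rose. It read 664.6, 565.2 and 651.3 in KO903, KO904 and KO905, against 407.7, 384.7 and 471 in WT4, WT5 and WT6 (log2 0.56 ± 0.13 SE, limma adjusted p = 0.0409). Its groups were apart, and KO904 was the lowest of the knockout samples; the call ended when any library other than WT6 was left out (adjusted p up to 0.146). The part of recruited monocytes in the macrophage values was not tested, nor was that of neutrophils, of which 2 of 13 markers were tested (summed signals of 565.8 to 850.2 in knockout and 528.4 to 805.8 in wild-type samples). Of 11 NK cell markers 2 were tested (217.3 to 330.7 in knockout, 221.4 to 330.1 in wild-type samples), and of 14 T cell markers 0 were in the table. Among non-immune cells, 0 of 12 tested sinusoidal endothelial markers passed by limma. Their sums were 4799.1 to 5459.7 in knockout and 4582.8 to 4958.4 in wild-type samples. An unadjusted limma p under 0.05 was reached by 6 of them, Ehd3 and Lyve1 lower and the rest higher. Of all 6604 tested genes 1188 reached it, in either direction. Of 6 tested stellate cell markers 1 rose, the pericyte gene Rgs5 (log2 0.71 ± 0.15 SE, limma adjusted p = 0.0251), beside 2.14% of all tested genes. That call ended without KO903, KO904 or WT6 (up to 0.11). The other Rgs5 probe sets were not called (log2 0.60, 0.43 and 0.25, limma adjusted p of 0.0847 to 0.502). Stellate cell sums were 6540.2 to 7834.3 in knockout and 5667.6 to 7427.7 in wild-type samples. The 2 tested bile duct markers, Krt8 and Krt18, which hepatocytes also make, summed to 4847.2 to 5126.5 in knockout and 3350.4 to 4298.8 in wild-type samples. Neither passed by limma. Both were higher at an unadjusted limma p under 0.05, as were 10.1% of all tested genes.

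**Figure D4:**
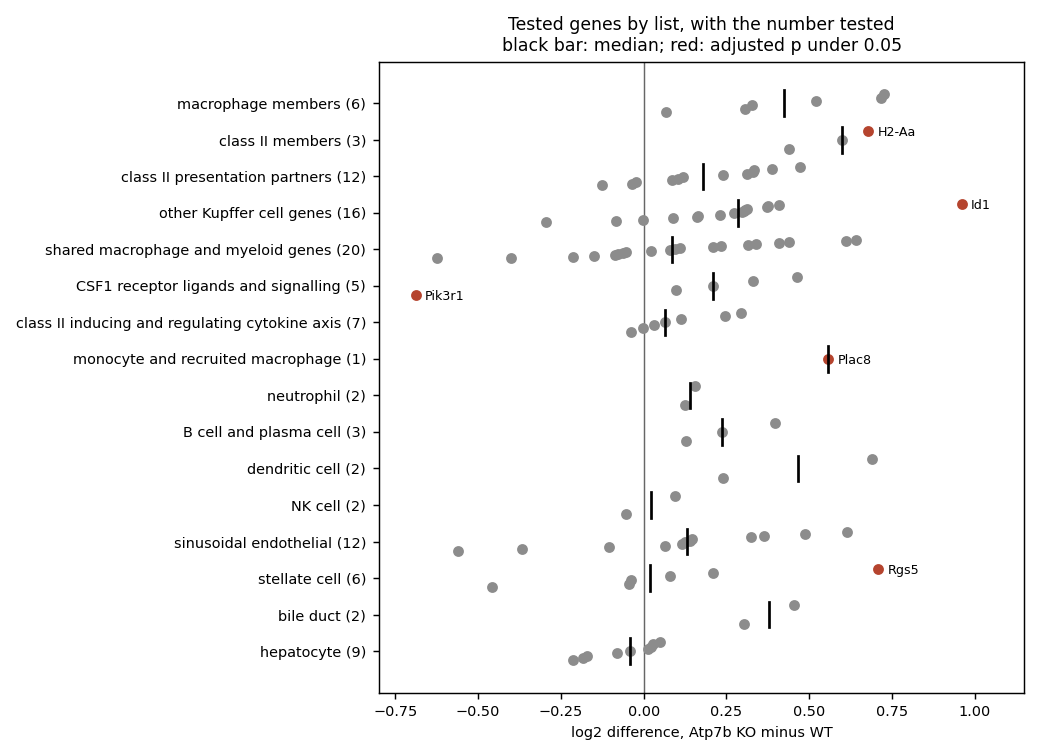
Log2 difference, Atp7b knockout minus wild type, of each tested gene by list (1 point per gene, its brightest probe set; the top 2 rows are the macrophage markers and class II genes described), with the number of tested genes in brackets, a black bar at the list's median and called genes in red. The medians are 0.42 for the macrophage markers and 0.60 for the class II genes, and 5 genes are red, namely H2-Aa, Id1, Pik3r1, Plac8 and Rgs5, of which Pik3r1 alone lies below 0.

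Outside these genes, those whose log2 signals over the 6 arrays were most like the mean of the 3 class II genes were Aqp1, Cd47, Trit1, Dctn2 and Lrrc61 (Pearson r of 0.981 to 0.991). Most like the mean of the 6 macrophage markers were Asb8, Rnf11, Dnmt3a, BC028528 and Dcaf8 (r of 0.977 to 0.999). These are the highest of 6595 genes compared over 6 arrays that share their scaling, and 109 genes had an r above 0.9 with the class II mean and 89 with the macrophage mean. None of the 10 was called by limma (adjusted p of 0.234 to 0.711).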

How the data were processed

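Total liver RNA of 6 samples was profiled on Affymetrix arrays. The deposited values are intensity values that, per the labels, are MAS 5.0 signals with each array scaled to a target average of 350. The basis on which the table's 11811 probe sets were selected is unstated. Symbols came from the platform annotation through Entrez identifiers (0 changed against RefSeq, GRCm38.p6).

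Signals were analysed as log2(signal + 16), which understates changes of low signals. The 33 control probe sets and 1158 with a mean signal under 100 were left out, and 10620 were fitted with limma 3.58.1 in R 4.3.3 (eBayes with an intensity trend, two-sided, Benjamini-Hochberg over all tested, threshold 0.05); errors beside log2 differences are moderated SEs. The fit was tested on simulated data. A gene's brightest probe set stood for it. Named were all members, every called gene of each pathway list or the 2 with the smallest p, and the 5 genes most like each set. Members and lists were chosen with earlier results of these data known. Alternatives covered scaling, pseudocount, filter, variance model, array weights, threshold, probe set averaging and each sample left out. At most 0.0847% of values were identical between 2 arrays. Figures used Python 3.11.15 with matplotlib 3.10.9.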

Additional observations from a re-analysis of the deposited data

How the results depend on the processing

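Over 211 combinations of a member probe set with an alternative, 196 kept their sign and their side of the threshold, 8 lost the call, 4 gained one and 3 changed sign. All 8 losses were of the brightest H2-Aa probe set, the only member probe set called, which had 18 alternatives. The other member probe sets had no call to lose. The sign changes were of Adgre1, without KO903 (-0.08), without WT5 (-0.082) and without both (-0.23), the last chosen after seeing the data; leaving out 1 sample gave it -0.08 to 0.20. The class II genes called higher numbered 1, and 0 with eBayes without the trend, with the mean over probe sets and without KO903 and WT5 together; leaving out 1 sample gave 0 to 1. The macrophage markers called higher numbered 0, and 1 at a threshold of 0.10; leaving out 1 sample gave 0 to 3, the 3 being without WT4. Median log2 differences with 1 sample left out were 0.33 to 0.58 for macrophage markers and 0.36 to 0.81 for class II genes. Without KO903 and WT5 together these medians were 0.22 for macrophage markers and 0.41 for class II genes. Over all tested probe sets, 218 were higher and 222 lower in the knockout, or 408 and 378 at a threshold of 0.10; with 1 sample left out they were 82 to 242 and 93 to 233. The causes were not tested. Scaling by quantiles or array medians changed no member's call. No paired analysis was possible because the labels number the knockout and wild-type samples differently. Low signals limit Cd68 and the dimmer H2-Aa probe set.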
